A study of Mus musculus with 8 samples.

Results

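The genes described here encode the Cyp4 fatty acid ω-hydroxylases of mouse liver. They are 10 named members of the *Cyp4a*, *Cyp4f* and *Cyp4v* subfamilies. They were found among the 45706 genes of the count table by matching Ensembl identifiers to the GENCODE M21 annotation of GRCm38. The members were listed with earlier results of these data known, and other genes of these subfamilies were left out. All 10 had reads in every liver and all 10 passed the filter on low counts, as did 15491 genes in all. Poly(A) RNA was sequenced from the livers of 8 male mice of the strain labelled C56B6/J, 4 labelled *Srsf10-kd* and 4 labelled *Ctrl*. Both groups were given an AAV2/8 by tail vein when 6 weeks old. High-fat feeding (60% of calories) began 4 weeks after the injection and lasted 12 weeks. The vector carried GFP and a mirE/shRNA behind the chicken β-actin (CBA) promoter, which is not restricted to hepatocytes. The shRNA was directed to *Srsf10*, an SR protein gene, in the *Srsf10-kd* group and was a control in the *Ctrl* group, so both groups shared the virus, the GFP and the diet, and there was no lean or uninjected group. Each library came from 1 liver.

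ω-Hydroxylases are haem enzymes of the endoplasmic reticulum that add oxygen to the last carbon of a fatty acid chain. The alcohol is then oxidised by alcohol and aldehyde dehydrogenases to a dicarboxylic acid, which is shortened by β-oxidation in peroxisomes. *Cyp4a10* and *Cyp4a14* are classical targets of the nuclear receptor PPARα and are induced in liver by fasting, fatty acids and fibrate drugs, *Cyp4a12a* and *Cyp4a12b* are more active in males, and the Cyp4f enzymes hydroxylate leukotrienes and other eicosanoids. *Cyp4v3* is the mouse counterpart of human *CYP4V2*, the gene mutated in Bietti crystalline corneoretinal dystrophy.

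The 10 genes lie in 3 places. All 6 *Cyp4a* genes are within 1 cluster on chromosome 4, in the order *Cyp4a12a* (chr4:115299046-115332815), *Cyp4a12b* (chr4:115411624-115439034), *Cyp4a14* (chr4:115486200-115496142), *Cyp4a10* (chr4:115518264-115533649), *Cyp4a31* (chr4:115563649-115579015) and *Cyp4a32* (chr4:115600969-115621602). *Cyp4a14* is on the minus strand and the other 5 on the plus strand. *Cyp4f15* (chr17:32685627-32703352, plus strand), *Cyp4f14* (chr17:32905070-32917342, minus strand) and *Cyp4f13* (chr17:32924688-32947402, minus strand) lie on chromosome 17, and *Cyp4v3* (chr8:45304944-45333216, minus strand) on chromosome 8. The feature that makes all of them P450 enzymes is the loop that holds the haem, in which a cysteine binds the iron. The 30 bases that encode this loop of the 10 members were read from the GENCODE M21 transcripts on the coding strand and are given 5′ to 3′ with the cysteine codon in capitals.
Cyp4a10: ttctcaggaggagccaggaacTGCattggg
Cyp4a31: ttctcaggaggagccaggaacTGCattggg
Cyp4a32: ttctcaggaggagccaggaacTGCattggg
Cyp4a12a: ttctcaggaggagcaaggaacTGCattggg
Cyp4a12b: ttctcaggaggagcaaggaacTGCattggg
Cyp4a14: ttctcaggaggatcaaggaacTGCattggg
Cyp4f13: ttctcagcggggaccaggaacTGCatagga
Cyp4f14: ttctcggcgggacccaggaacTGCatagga
Cyp4f15: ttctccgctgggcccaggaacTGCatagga
Cyp4v3: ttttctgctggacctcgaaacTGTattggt
*Cyp4a10*, *Cyp4a31* and *Cyp4a32* were identical here. *Cyp4a12a* and *Cyp4a12b* differed from them at 1 base, *Cyp4a14* at 2, *Cyp4f13* and *Cyp4f14* at 6, *Cyp4f15* at 7 and *Cyp4v3* at 10. The loop was interrupted by an intron in every member. In *Cyp4a10* its 2 exon parts are chr4:115529502-115529518 and chr4:115532531-115532543, and in *Cyp4v3* they are chr8:45308380-45308407 and chr8:45307107-45307108.

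Over the whole coding sequence the *Cyp4a* genes fell into 3 kinds. *Cyp4a12a* and *Cyp4a12b* were 98.5% identical, with 23 differing bases and 11 differing residues. *Cyp4a10* was 97.2% identical to *Cyp4a32* and 96.6% to *Cyp4a31*. *Cyp4a14* was only 77.6% identical to *Cyp4a10* and stood alone. *Cyp4f14* and *Cyp4f15* were 82.1% identical, and *Cyp4v3* was 60.6% identical to *Cyp4a10*.

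**Figure D1:**
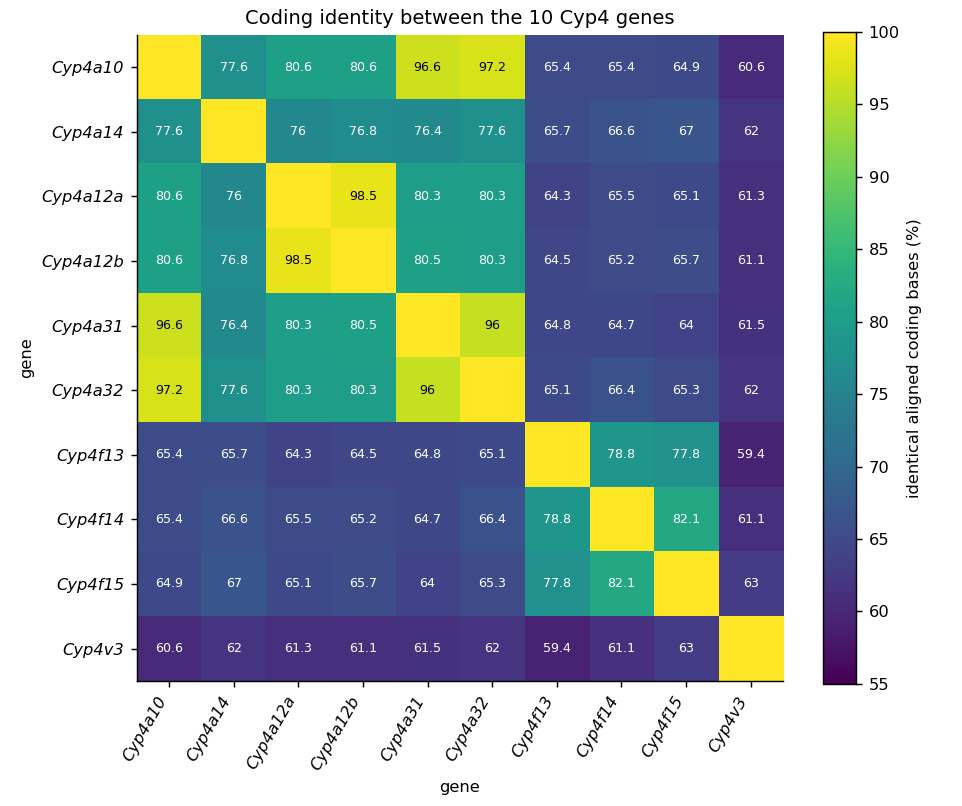
Identity of the coding sequences of the 10 Cyp4 genes, as the percent of aligned bases that are the same, for each pair of genes (colour scale in percent). The *Cyp4a10*, *Cyp4a31* and *Cyp4a32* pairs and the *Cyp4a12a* and *Cyp4a12b* pair are at 96% or above, whereas *Cyp4v3* does not exceed 63% with any member.

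This identity limits how far reads can tell the genes apart. Of the 75-base stretches of the transcript, 40.8% of those of *Cyp4a12a*, 41.3% of *Cyp4a12b*, 30.4% of *Cyp4a32*, 19.1% of *Cyp4a10* and 13.9% of *Cyp4a31* also occurred in another gene, against none of *Cyp4a14* or *Cyp4f13* and fewer than 0.2% of *Cyp4f14* and *Cyp4f15*. The share of *Cyp4a31* came from many genes outside the Cyp4 family as well as from *Cyp4a10* and *Cyp4a32*. In *Cyp4v3* the share was 6.4%, from *Gm45753*, a gene on the same strand with which it has 313 exon bases in common. Of 150-base stretches, a smaller share also occurred in another gene. It was 25.6% for *Cyp4a12a*, 25.9% for *Cyp4a12b*, 7.97% for *Cyp4a32*, 4.34% for *Cyp4a10* and 4.19% for *Cyp4a31*. The values of the 5 near-identical *Cyp4a* genes are therefore uncertain as single genes, most of all those of *Cyp4a12a* and *Cyp4a12b*. For each set, the 60 coding bases within 1 exon that hold the most positions differing among its genes show how little separates them, with those positions in capitals (plus strand).
Cyp4a12a, chr4:115326628-115326687: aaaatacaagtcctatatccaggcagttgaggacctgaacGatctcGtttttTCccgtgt
Cyp4a12b, chr4:115432881-115432940: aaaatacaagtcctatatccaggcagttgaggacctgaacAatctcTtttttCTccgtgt
Cyp4a10, chr4:115519640-115519699: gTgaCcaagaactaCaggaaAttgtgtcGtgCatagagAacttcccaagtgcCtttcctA
Cyp4a31, chr4:115565020-115565079: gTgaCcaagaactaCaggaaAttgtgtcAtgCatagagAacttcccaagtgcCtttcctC
Cyp4a32, chr4:115602270-115602329: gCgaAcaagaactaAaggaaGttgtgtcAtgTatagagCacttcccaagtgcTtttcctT
*Cyp4a12b* differed from *Cyp4a12a* at 4 of 60 bases. In the other set *Cyp4a32* differed from *Cyp4a10* at 9 of 60 bases and *Cyp4a31* at 2.

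The libraries held 50456404 to 59697241 counted reads each. Levels are CPM, counts scaled to a common library size by TMM normalisation, and the comparison of groups is edgeR's quasi-likelihood test, two-sided and adjusted over 15491 genes. *Srsf10* itself measured 36.4 ± 3.24 CPM in *Srsf10-kd* and 32.9 ± 1.99 CPM in *Ctrl* livers (SD, n = 4, edgeR adjusted p = 0.378). The targeted transcript was thus not lower under the knockdown label, and the groups are named by their labels throughout. *Srsf10-kd* 3 stood apart from the other livers, at -67.4 on a first principal component on which the other 7 lay between -11.5 and 41.8. Hepatocyte markers took 83652 to 116714 CPM in the 8 livers, and those of neutrophils and kidney tubule summed to less than 4 CPM in each, with *Kap* at 0 counts. Markers of cholangiocytes, the bile duct cells, summed to 46.9 to 69.2 CPM in *Srsf10-kd* and 31.8 to 39.3 CPM in *Ctrl* livers, with all 6 higher and none at 0. The sums of macrophage (161 to 292 CPM), endothelial (223 to 290 CPM) and stellate cell markers (170 to 292 CPM) overlapped between the groups. Single markers could differ. Without overlap, 1 of the 7 endothelial and 2 of the 6 cholangiocyte markers were higher, against 6.73% of all genes. At an unadjusted edgeR p under 0.05, 4 of the 6 cholangiocyte markers were higher, against 11.2% of all genes. At such a p 2 endothelial markers were higher and 2 lower. Of the 8 hepatocyte markers 5 were lower and 3 higher. DESeq2 called 2 endothelial markers, 1 higher and 1 lower, and 1 cholangiocyte marker, where it called 5.75% of all genes. limma-voom, which called 11.7% of all genes, called a hepatocyte marker lower (log2 fold change -0.46, adjusted p = 0.0274). It also called endothelial, stellate and cholangiocyte markers. The part of these markers in the values below was not tested.

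No Cyp4 gene was called different between the groups. The edgeR test called 0 of the 10 members at an adjusted p under 0.05, where it called 0.071% of all genes, and 0 of 10 at an unadjusted p under 0.05, where 21.8% of all genes had one (10.6% lower and 11.2% higher). DESeq2 called 0 of 10 (5.75% of all genes) and limma-voom 0 of 10 (11.7% of all genes), and each had 1 member at an unadjusted p under 0.05, *Cyp4a32* and *Cyp4v3*. The groups did not overlap for 1 of 10 members in the lower direction, against 7.53% of all genes, and for 0 of 10 in the higher direction, against 6.73%. The median log2 fold change was -0.21 for the 10 members and 0.01 for all genes tested, with 7 members lower and 3 higher in *Srsf10-kd*. Of the 6 *Cyp4a* genes 5 were lower, with a median of -0.39 that became -0.13 without *Srsf10-kd* 3. Under limma-voom with sample quality weights 6 of the 10 members and 3 of the 6 *Cyp4a* genes were lower, and the medians were -0.05 and 0.11.

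**Figure D2:**
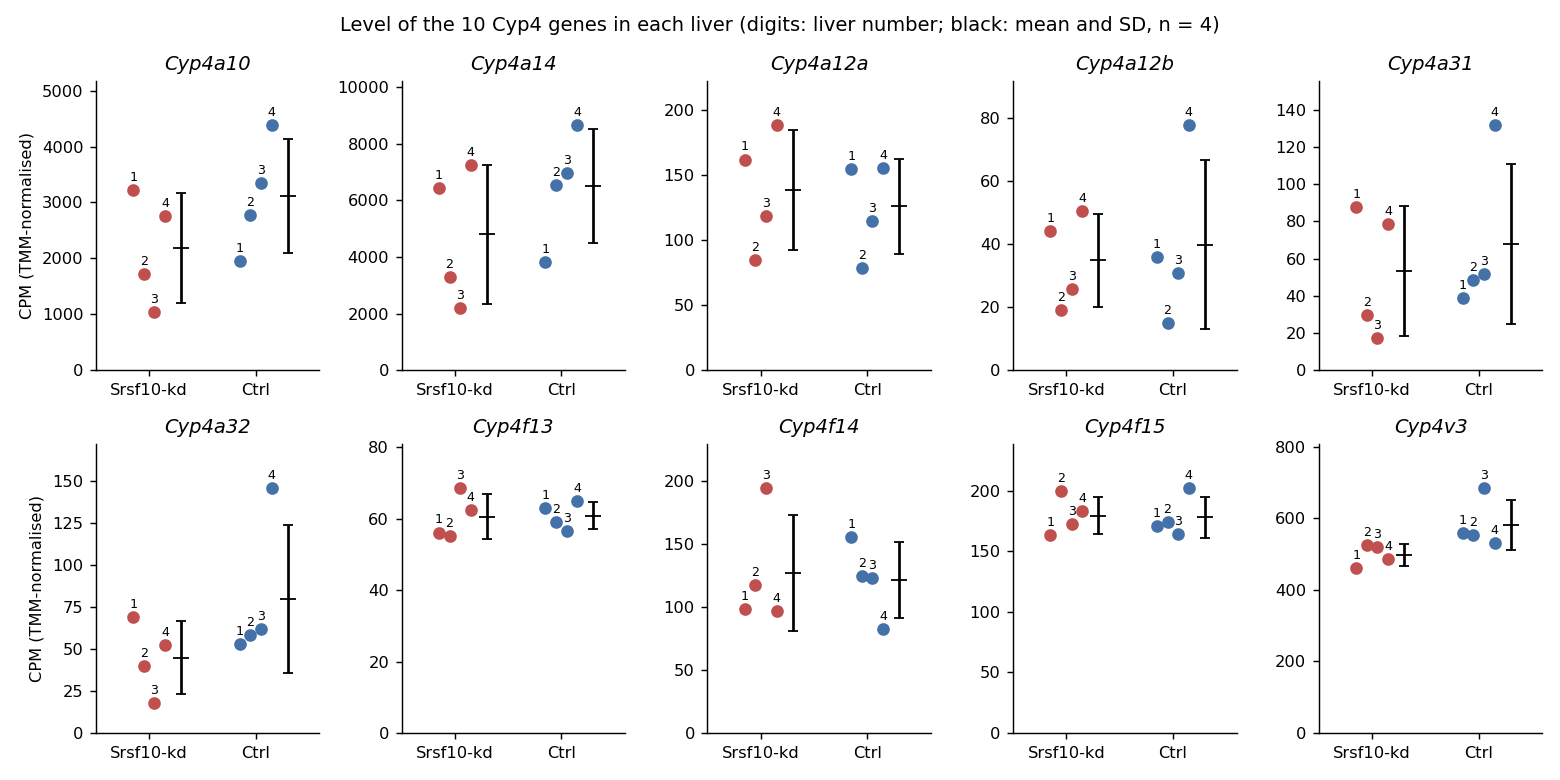
CPM of each Cyp4 gene in the 4 *Srsf10-kd* livers (red) and the 4 *Ctrl* livers (blue), with the liver number at each point and the mean and SD (n = 4) in black; each panel has its own linear axis from 0. *Cyp4a10*, *Cyp4a14*, *Cyp4a31* and *Cyp4a32* are lowest in *Srsf10-kd* 3 and highest in *Ctrl* 4, while *Cyp4f13* and *Cyp4f15* differ little between livers.

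*Cyp4a14* was the most abundant member and ranked 19th of 15491 genes by mean CPM. It measured 6448, 3287, 2194 and 7265 CPM in *Srsf10-kd* 1 to 4, and 3808, 6548, 6981 and 8663 CPM in *Ctrl* 1 to 4. *Srsf10-kd* 2 and 3 were below every *Ctrl* liver, whereas *Srsf10-kd* 1 and 4 lay among them, so the groups overlapped. Mean levels were 4798 ± 2441 CPM and 6500 ± 2013 CPM (SD, n = 4). On the log2 scale the difference was -0.44, with a 95% interval from -1.28 to 0.41 and an edgeR adjusted p of 0.488, and leaving out 1 liver moved it to between -0.71 (*Srsf10-kd* 4 left out) and -0.19 (*Srsf10-kd* 3 left out). With limma-voom it was -0.04 (adjusted p = 0.944). In a bulk sample, fewer cells that express a gene cannot be told apart from less RNA of it per cell.

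*Cyp4a10* ranked 48th and showed the same order of low livers. Its levels were 3217, 1725, 1039 and 2765 CPM in *Srsf10-kd* 1 to 4 and 1950, 2777, 3341 and 4383 CPM in *Ctrl* 1 to 4. The groups overlapped, with *Srsf10-kd* 1 above *Ctrl* 1 and 2. The log2 fold change was -0.51 (95% interval -1.29 to 0.27, edgeR adjusted p = 0.386) and ranged from -0.75 to -0.27 when 1 liver was left out, but it was -0.08 with limma-voom (adjusted p = 0.857). Together *Cyp4a10* and *Cyp4a14* took 0.304% of all counts in *Srsf10-kd* 3 and 1.29% in *Ctrl* 4, and all 10 members took 0.41% to 1.43%.

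The near-identical relatives of *Cyp4a10* were present at far lower levels. *Cyp4a32* measured 69.2, 39.7, 18.0 and 52.6 CPM in *Srsf10-kd* 1 to 4 and 53.3, 58.6, 61.7 and 146 CPM in *Ctrl* 1 to 4. *Ctrl* 4 was the highest of all livers by far, and *Srsf10-kd* 1 lay above the 3 other *Ctrl* livers. The log2 fold change of -0.83 was the largest among the members (95% interval -1.78 to 0.11, edgeR adjusted p = 0.268). It was -0.37 without *Ctrl* 4 and -0.32 with limma-voom, and DESeq2 gave an adjusted p of 0.199. *Cyp4a31* measured 87.5, 29.7, 17.2 and 78.7 CPM against 39.0, 48.3, 51.9 and 131.8 CPM. Its log2 fold change was -0.35 (edgeR adjusted p = 0.706) with all livers and 0.20 without *Ctrl* 4, so its direction rested on that liver. Summed over *Cyp4a10*, *Cyp4a31* and *Cyp4a32*, the level was 2285 ± 1044 CPM in *Srsf10-kd* and 3260 ± 1099 CPM in *Ctrl* (SD, n = 4). Reads that match more than 1 of these genes may be missing from this sum.

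*Cyp4a12a* and *Cyp4a12b*, the male-predominant pair, were not called either. *Cyp4a12a* measured 162, 84.8, 119 and 188 CPM in *Srsf10-kd* 1 to 4 and 155, 78.8, 115 and 156 CPM in *Ctrl* 1 to 4. The groups overlapped over almost their whole range, and the log2 fold change was 0.14 (95% interval -0.47 to 0.75, edgeR adjusted p = 0.777), or 0.41 with limma-voom (adjusted p = 0.343). *Cyp4a12b* measured 44.0, 19.1, 25.9 and 50.4 CPM against 35.9, 14.8, 30.8 and 77.6 CPM. Its log2 fold change was -0.19 (edgeR adjusted p = 0.816) and became 0.36 without *Ctrl* 4 and 0.53 with limma-voom. Their sum was 173 ± 60.5 CPM in *Srsf10-kd* and 166 ± 59.9 CPM in *Ctrl* (SD, n = 4).

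Among the 3 *Cyp4f* genes, *Cyp4f13* and *Cyp4f15* had the smallest fold changes of the family. *Cyp4f15* measured 163, 199, 172 and 183 CPM in *Srsf10-kd* 1 to 4 and 171, 175, 164 and 202 CPM in *Ctrl* 1 to 4, and its log2 fold change was 0.01 with a 95% interval from -0.24 to 0.26. *Cyp4f13* measured 56.2, 55.1, 68.7 and 62.4 CPM against 63.0, 59.0, 56.6 and 65.0 CPM, with an interval from -0.24 to 0.23. For both genes the interval excludes a log2 fold change beyond 0.26 in either direction. *Cyp4f14*, which encodes a leukotriene B4 ω-hydroxylase, varied more. It measured 98.4, 118, 194 and 96.6 CPM in *Srsf10-kd* and 155, 125, 123 and 82.4 CPM in *Ctrl* livers. *Srsf10-kd* 3 was its highest liver and *Ctrl* 4 its lowest, the reverse of *Cyp4a14*. Its log2 fold change was 0.06 (95% interval -0.50 to 0.63, edgeR adjusted p = 0.896) and -0.22 without *Srsf10-kd* 3.

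*Cyp4v3* was the only member whose groups did not overlap. It measured 461, 526, 520 and 486 CPM in *Srsf10-kd* 1 to 4 and 560, 553, 685 and 532 CPM in *Ctrl* 1 to 4. The lowest *Ctrl* liver was 1.01 times the highest *Srsf10-kd* liver, so the separation was narrow. Mean levels were 498 ± 30.7 CPM and 582 ± 69.6 CPM (SD, n = 4). On the log2 scale the difference was -0.22 (95% interval -0.49 to 0.04), with an edgeR adjusted p of 0.280 and a DESeq2 adjusted p of 0.219. It stayed between -0.27 and -0.14 when 1 liver was left out. The two-sided exact permutation test over the livers gave p = 0.0286, the smallest that 4 against 4 allows, and 0.2 or more for each of the other 9 members.

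**Figure D3:**
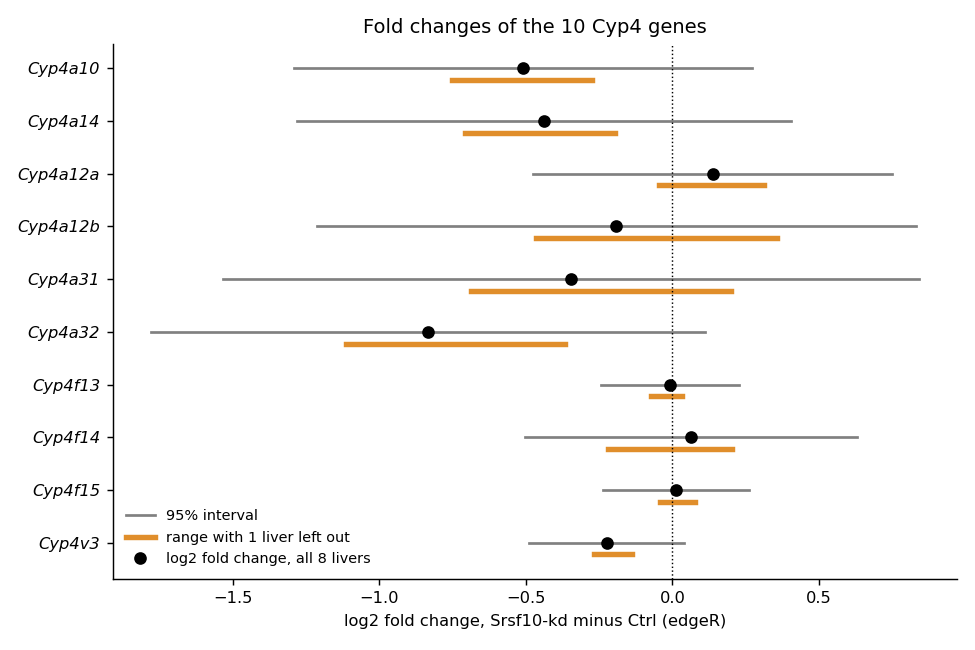
Log2 fold change of each Cyp4 gene between *Srsf10-kd* and *Ctrl* livers (points, edgeR), with its 95% interval (grey lines) and the range when 1 of the 8 livers is left out (orange bars). All 10 intervals include 0, and those of *Cyp4f13*, *Cyp4f15* and *Cyp4v3* are the narrowest.

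Per kilobase of merged exon, which allows levels of different genes to be compared, the order in *Ctrl* livers was *Cyp4a14* (2499 CPM per kb), *Cyp4a10* (1476), *Cyp4v3* (153), *Cyp4f15* (78.0), *Cyp4a32* (52.1), *Cyp4a12a* (52.0), *Cyp4f14* (50.2), *Cyp4a31* (27.0), *Cyp4a12b* (16.6) and *Cyp4f13* (13.7). *Cyp4a32*, *Cyp4a12a* and *Cyp4f14* are neighbours in that order that the spread between livers does not separate. The longest annotated coding transcript of *Cyp4a32* (1530 bases) holds coding sequence only, and the merged exons of *Cyp4f13* span 4441 bases against 1752 in its longest coding transcript, so these values per kilobase are less comparable with the rest. In *Srsf10-kd* livers *Cyp4a14* (1845 CPM per kb), *Cyp4a10* (1037) and *Cyp4v3* (131) led in the same order, and *Cyp4a32* (29.2) came behind *Cyp4f14* (52.4).

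The *Cyp4a* genes varied widely between livers of the same group. The within-group SD of log2 CPM was 0.97 for *Cyp4a31*, 0.83 for *Cyp4a12b*, 0.76 for *Cyp4a32*, 0.68 for *Cyp4a14*, 0.63 for *Cyp4a10* and 0.49 for *Cyp4a12a*, against a median of 0.21 over 10967 genes with a mean log2 CPM of at least 1. These were at percentiles 93.9 to 99.5 of those genes. *Cyp4f14* was at percentile 90.4, with an SD of 0.43. *Cyp4v3*, *Cyp4f15* and *Cyp4f13* were at percentiles 20.3, 18.7 and 16.6, with SDs of 0.13, 0.13 and 0.12. Counting error was small beside this, since the lowest count of any member in any liver was 882 (*Cyp4a31* in *Srsf10-kd* 3), which gives a counting error of 3.37%.

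The variation was shared by part of the family. Over the 8 livers the log2 CPM of *Cyp4a10* correlated with that of *Cyp4a14* at r = 0.974 (exact permutation p = 0.000496, adjusted 0.00246 over 9 relations; rho = 0.833, exact permutation p = 0.0154, adjusted 0.0693). For *Cyp4a31* r was 0.924 (exact permutation p = 0.000546, adjusted 0.00246; rho = 0.857, p = 0.0107, adjusted 0.0693). For *Cyp4a32* r was 0.871 (exact permutation p = 0.00114, adjusted 0.00342; rho = 0.69, p = 0.0694, adjusted 0.156). *Cyp4f14* went the other way, with r = -0.843 (exact permutation p = 0.00818, adjusted 0.0184; rho = -0.738, p = 0.0458, adjusted 0.137). No rank correlation passed the adjustment. Without *Srsf10-kd* 2 and 3, the livers farthest from the median of *Cyp4a14*, r was 0.905, 0.764, 0.587 and -0.859 in the same order of genes. With each group's mean removed, r was 0.970, 0.928, 0.844 and -0.906 in the same order. *Cyp4a10*, *Cyp4a31* and *Cyp4a32* share 75-base stretches with one another but not with *Cyp4a14*, and all values of a liver come from 1 library.

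For the other 5 members the relation with *Cyp4a14* did not pass the adjustment. For *Cyp4a12a* r was 0.311 and for *Cyp4a12b* 0.485 (exact permutation, adjusted p = 0.629 and 0.396), although both genes lie in the same cluster as *Cyp4a14*. *Cyp4f13*, *Cyp4f15* and *Cyp4v3* had r of -0.28, 0.06 and 0.08 (exact permutation, adjusted p = 0.629, 0.892 and 0.892).

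**Figure D4:**
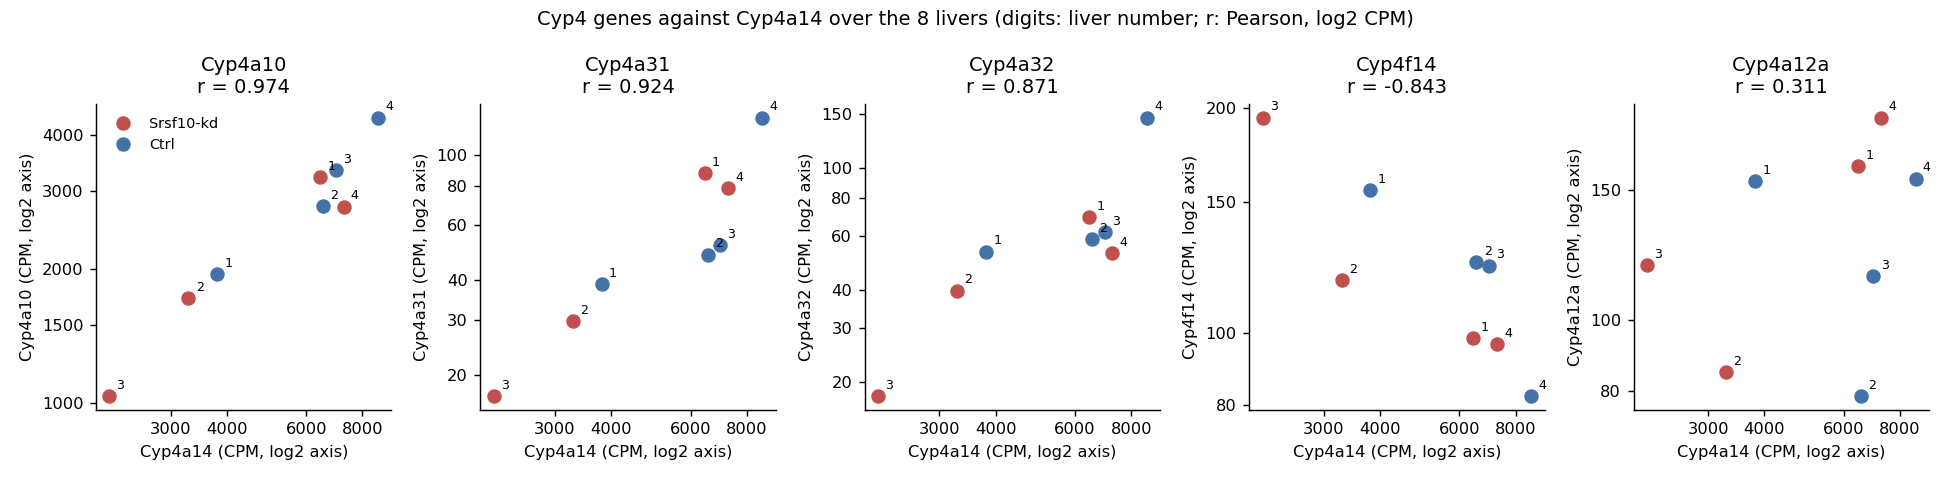
CPM of 5 Cyp4 genes (vertical, log2 axis) against CPM of *Cyp4a14* (horizontal, log2 axis) in the 8 livers, red for *Srsf10-kd* and blue for *Ctrl*, with the liver number at each point and Pearson's r of log2 CPM above each panel. *Cyp4a10*, *Cyp4a31* and *Cyp4a32* rise with *Cyp4a14* from *Srsf10-kd* 3 to *Ctrl* 4, *Cyp4f14* falls, and *Cyp4a12a* is scattered.

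Ratios within a liver, which do not depend on library size, showed no group difference that passed the test. *Cyp4a14* was 1.91 to 2.63 times *Cyp4a10* in CPM in the 8 livers, and the group difference of the log2 ratio was 0.04 (two-sided exact permutation p = 0.743). The ratio of *Cyp4a12b* to *Cyp4a12a* was 0.188 to 0.272 in 7 livers and 0.499 in *Ctrl* 4, and its log2 difference was -0.18 (exact permutation p = 0.686). The ratios of *Cyp4a31* to *Cyp4a10* and of *Cyp4f14* to *Cyp4f13* differed by 0.11 and 0.05 on the log2 scale. Adjusted over the 4 ratios each exact permutation p was 0.914.

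Among 10957 genes other than the 10 members and with a mean log2 CPM of at least 1, the 5 whose pattern over the 8 livers was most like that of *Cyp4a14* were *Ehhadh* (r = 0.990), *Mettl27* (0.982), *Gk* (0.977), *Zfp60* (0.965) and *Tmem209* (0.962). *Ehhadh*, the peroxisomal bifunctional enzyme of dicarboxylic acid β-oxidation, measured 2439, 923, 397 and 2576 CPM in *Srsf10-kd* 1 to 4 and 1018, 1903, 2680 and 3451 CPM in *Ctrl* 1 to 4. Its order of livers was almost that of *Cyp4a14*, and it was not called either (log2 fold change -0.51 with edgeR, adjusted p = 0.576, and 0.11 with limma-voom). *Cyp4a12a* was matched most closely by *Gm2788* (r = 0.934), *Abcg2* (0.929), *Trip10* (0.913), *Zfp846* (0.908) and *Ahsa2* (0.902), and *Cyp4f14* by *Magt1* (0.953), *Gpbp1l1* (0.949), *Slc17a3* (0.947), *Tmx4* (0.937) and *Nars2* (0.934). The 3 sets had no gene in common. These are descriptions over 8 livers, picked as the highest of many.

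The gene of the receptor itself was called lower. *Ppara*, which encodes PPARα, measured 88.4, 84.6, 77.8 and 82.3 CPM in *Srsf10-kd* 1 to 4 and 177, 208, 168 and 234 CPM in *Ctrl* 1 to 4. The groups were far from overlapping, and the log2 fold change was -1.24 (edgeR adjusted p = 0.0166). Among the *Srsf10-kd* livers *Ppara* varied 1.14-fold, whereas *Cyp4a14* varied 3.31-fold and *Cyp4a31* 5.10-fold. *Srsf10-kd* 4 had 7265 CPM of *Cyp4a14* with 82.3 CPM of *Ppara*, and *Ctrl* 1 had 3808 CPM of *Cyp4a14* with 177 CPM of *Ppara*. *Ctrl* 4 was the highest of all livers for both genes (8663 CPM of *Cyp4a14* and 234 CPM of *Ppara*). *Srsf10-kd* 3 was the lowest for both (2194 and 77.8 CPM). The relation between the levels of *Ppara* and *Cyp4a14* was not tested. Of the 12 genes listed as PPARα and its partners, edgeR and DESeq2 each called 2, against 0.071% and 5.75% of all genes. At an unadjusted edgeR p under 0.05, 4 of the 12 were lower, against 10.6% of all genes. *Lcor*, a nuclear receptor corepressor, was the only one called besides *Ppara*. It measured 2.60 ± 0.175 against 8.09 ± 2.05 CPM (SD, n = 4), with a log2 fold change of -1.64 (edgeR adjusted p = 0.0195). *Med1*, a coactivator subunit, measured 24.5 ± 1.21 against 30.9 ± 4.31 CPM (edgeR adjusted p = 0.166). limma-voom, which called 11.7% of all genes, called *Med1* (adjusted p = 0.0178) and *Rxra*, the receptor's partner (0.0454), besides *Ppara* and *Lcor*. Removal of the trend on transcript length ended the call of *Lcor* (adjusted p = 0.0564) but not that of *Ppara* (0.0132). The slope of log2 level on log2 length was -0.19 to -0.024 in *Srsf10-kd* and -0.029 to 0.137 in *Ctrl* livers, and its part in these calls was not tested. The *Ppara* and *Lcor* calls were absent, as were all other calls on the pathway lists, when *Srsf10-kd* 1, 2 or 4 or *Ctrl* 2 was left out.

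No gene of the steps before and after ω-hydroxylation was called by edgeR. DESeq2 called none either. Of all 15491 tested genes 7537 were lower and 7954 higher with edgeR. It called 0.071% of them, DESeq2 called 5.75%, and 21.8% had an unadjusted edgeR p under 0.05. Among the 5 genes that supply electrons to P450 enzymes, 3 were lower and 2 higher (median log2 fold change -0.05) and none had an unadjusted edgeR p under 0.05, with *Cyb5a*, cytochrome b5, at 1341 ± 428 against 1002 ± 193 CPM (log2 fold change 0.42, edgeR adjusted p = 0.280). Among the 8 dehydrogenases that oxidise the ω-alcohol and aldehyde, 4 were lower and 4 higher, and *Adh1* and *Aldh9a1* had an unadjusted edgeR p under 0.05. The alcohol dehydrogenase gene *Adh1* measured 1936 ± 290 against 1418 ± 257 CPM (0.45, edgeR adjusted p = 0.180) and the fatty aldehyde dehydrogenase gene *Aldh3a2* 1123 ± 318 against 1547 ± 193 CPM (-0.46, edgeR adjusted p = 0.230). *Aldh9a1* measured 275 ± 34.9 against 333 ± 26.1 CPM with groups that did not overlap (edgeR adjusted p = 0.227). These steps had no common direction.

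Of the 17 genes of peroxisomal oxidation of dicarboxylic acids 13 were lower, the median being -0.19 on the log2 scale, and 0 were called by edgeR or DESeq2. With limma-voom 8 were lower and 9 higher, so the balance of directions depended on the method. Only *Acot4*, a peroxisomal succinyl-CoA thioesterase gene, had an unadjusted edgeR p under 0.05 (64.3 ± 12.3 against 84.3 ± 13.7 CPM, -0.39, adjusted p = 0.216). *Abcd3*, which encodes a peroxisomal importer of dicarboxylic acyl-CoA, measured 844 ± 135 against 1024 ± 51.0 CPM without overlap (-0.28, edgeR adjusted p = 0.262). The activating enzyme gene *Acsl1* measured 2104 ± 523 against 2779 ± 123 CPM (-0.40, edgeR adjusted p = 0.236). Of 29 other PPARα target genes 18 were lower, with a median of -0.08 and 0 called by edgeR or DESeq2. Of the 29, 1 had an unadjusted edgeR p under 0.05 (*Hadha*), where 21.8% of all genes had one. With limma-voom 13 of the 29 were lower and 16 higher. The 3 with the smallest p were *Hadha* of mitochondrial β-oxidation (-0.49), the carnitine palmitoyltransferase gene *Cpt1a* (-0.66) and the peroxisome proliferation gene *Pex11a* (-0.26), with edgeR adjusted p of 0.210, 0.237 and 0.271. The lists have genes in common with what earlier work on these libraries examined, so their direction is not independent evidence.

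**Figure D5:**
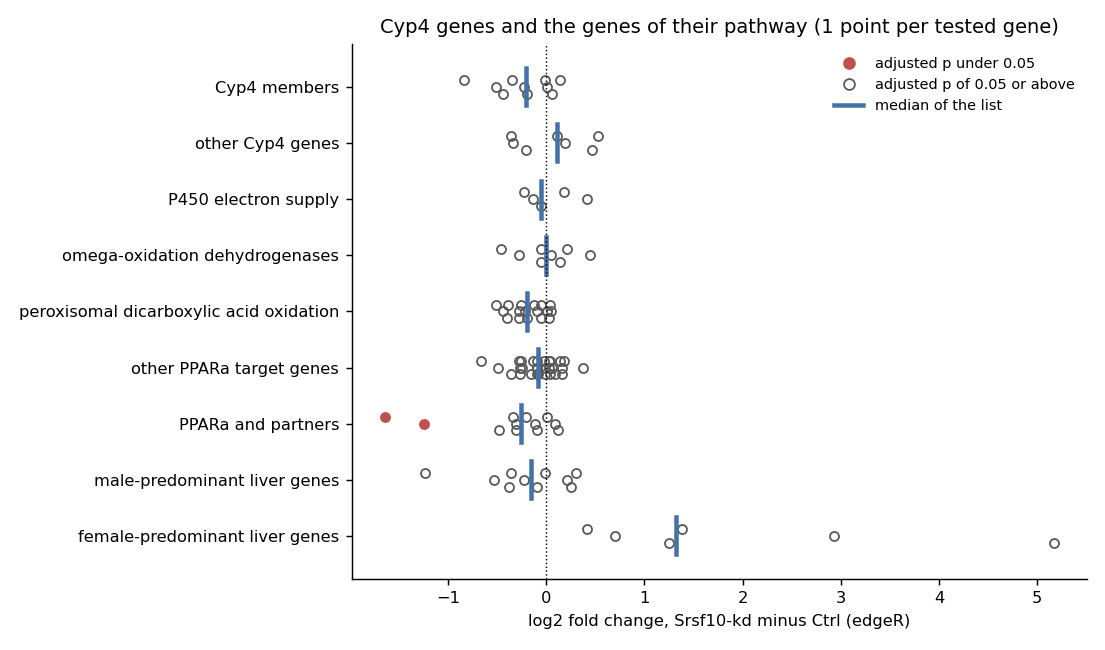
Log2 fold change of each tested gene (points) in the 10 Cyp4 genes and in the lists of their pathway, with the median of each list (blue lines); filled red points have an edgeR adjusted p under 0.05. The 2 filled points are *Ppara* and *Lcor*, and the median of the 10 Cyp4 genes is -0.21.

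The rest of the Cyp4 family was scarce in these livers. Of 14 other *Cyp4* genes 7 passed the filter, 4 higher and 3 lower, with 0 called by edgeR or DESeq2. Of the 7, 1 had an unadjusted edgeR p under 0.05 (*Cyp4f16*), where 21.8% of all genes had one. *Cyp4b1* measured 20.2 ± 3.60 CPM in *Srsf10-kd* and 18.7 ± 2.39 in *Ctrl*, and *Cyp4f17* 11.8 ± 2.23 and 14.8 ± 1.83 (SD, n = 4). *Cyp4f16* measured 2.24 ± 0.248 and 1.63 ± 0.280 CPM without overlap, with a log2 fold change of 0.46, an edgeR adjusted p of 0.175 and a limma-voom adjusted p of 0.0285. *Cyp4f18*, *Cyp4f39*, *Cyp4f40* and *Cyp4f41-ps* were below 1 CPM in both groups, and *Cyp4a29* and *Cyp4b1-ps1* had no counts.

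Because *Cyp4a12a* and *Cyp4a12b* are male-predominant, other sex-dependent liver genes were read beside them. Of 10 tested male-predominant genes 7 were lower, with a median of -0.16 and 0 called by edgeR or DESeq2. Of the 10, 2 had an unadjusted edgeR p under 0.05 (*Slco1a1* and *Bcl6*), where 21.8% of all genes had one. With limma-voom 4 were lower and 6 higher. The transporter gene *Slco1a1* measured 326 ± 75.2 against 469 ± 138 CPM, *Elovl3* 270 ± 72.2 against 316 ± 69.2 CPM and the repressor gene *Bcl6* 15.2 ± 7.37 against 35.5 ± 24.1 CPM (SD, n = 4). Of 14 female-predominant genes 6 passed the filter, and all 6 had positive fold changes in edgeR, as had 7954 of all 15491 tested genes. Of the 6, 0 were called and 3 had an unadjusted edgeR p under 0.05 (*Cyp2b13*, *Prom1* and *A1bg*), where 11.2% of all genes were higher at such a p. DESeq2 called none of the 4 for which it gave an adjusted p and gave none for *Cyp2b13* and *Cyp2a4*. With limma-voom 4 were higher and 2 lower, *Cyp2b9* at -1.45 and *Cyp2a4* at -0.11. *Cyp2b13* went from 5.17 to 0.29, and *A1bg* was called (limma-voom adjusted p = 0.0336). *A1bg* had only 30, 26, 3 and 18 counts in *Srsf10-kd* 1 to 4 and 7, 6, 7 and 13 in *Ctrl* 1 to 4. It therefore passed the filter mainly through *Srsf10-kd* livers, and its higher value is weak evidence. *Srsf10-kd* 2 had 111 CPM of *Cyp2b13* against 3.03 CPM or less in the other 7 livers, and it was the *Srsf10-kd* liver with the lowest *Cyp4a12a* (84.8 CPM) and *Cyp4a12b* (19.1 CPM). *Ctrl* 2, the liver with the lowest *Cyp4a12a* of all (78.8 CPM), had 1.16 CPM of *Cyp2b13*. Its *Cyp2b9* (90.5 CPM) and *Cyp2a4* (4.28 CPM) were the highest among the *Ctrl* livers, below *Srsf10-kd* 2 at 362 and 47.1 CPM. Its *A1bg* (0.0981 CPM) was the lowest among the *Ctrl* livers, but at 6 counts against 7 in *Ctrl* 1 and 3 this order carries no weight. The part of the sex-dependent genes in the *Cyp4a12* values was not tested.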

How the data were processed

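Counts per gene were analysed for 8 livers. From directional poly(A) libraries sequenced for 75 bases from both ends, the authors aligned reads to GRCm38 with STAR (2.7.7a per the submitters' processing notes). The values deposited are raw counts per gene, without normalisation. The annotation release and the strand column are not given in the sources used here, so genes that overlap on either strand are uncertain. The table has 1 column per liver, each matched by its label, and 0 columns were left unused. No column was a duplicate (in the closest of 28 pairs, chi-square per degree of freedom was 50.6).

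Counts were analysed in R 4.3.3 with edgeR 4.0.16: TMM, filterByExpr and a quasi-likelihood model with the group as its only term. Genes with a Benjamini-Hochberg adjusted p under 0.05 among 15491 were called. log2 CPM used a prior count of 2. The 95% intervals come from the same fit. Single genes and ratios had two-sided exact permutation tests over 70 assignments. The livers are separate mice, and p-values measure the spread between them. Alternatives were DESeq2 1.42.0 (the tool of the study's methods), limma-voom (limma 3.58.1) with sample quality weights, other scalings (size factors of DESeq2, or library size alone), other filters (none, or a minimum of 10 counts per liver), a replicate block, a lowess trend on transcript length removed (span 0.5), and each liver left out in turn. Scripts were first tested on simulated data with 200 changed genes. Positions, exon lengths and sequences are from GENCODE M21 on GRCm38, which held 45143 of the identifiers; the other 563 kept their identifier. Stretches of 75 and of 150 bases were searched in all its transcripts, on both strands, and identity was taken from global alignments (Biopython 1.88).

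The members and all lists were chosen with earlier results of these data known, so no p was adjusted over a list alone and no list was tested as a set. Named are the 10 members, the other *Cyp4* genes past the filter, *Ppara* and *Srsf10*, up to 3 genes with the smallest p per pathway list, and the 5 genes most like *Cyp4a14*, *Cyp4a12a* and *Cyp4f14*. *Kap*, *Gm45753*, *Rxra*, *Cyp2b9*, *Cyp2a4*, *Cyp4a29* and *Cyp4b1-ps1* were named after their values were seen.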

Additional observations from a re-analysis of the deposited data

Results flagged for a closer look

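In each group of 4 livers the highest or lowest level of every member, and of the 4 log2 ratios between members, was set against the others by Dixon's criterion (gap to the nearest liver divided by the range, at its 95% critical value). Chance flags about 1 group in 20, or 1.4 of the 28 groups examined. *Ctrl* 4 stood out among the *Ctrl* livers for 2 members. *Cyp4a31* measured 131.75 CPM in *Ctrl* 4 and 38.96 to 51.90 CPM in *Ctrl* 1 to 3, with a gap of 0.861 of the range. *Cyp4a32* measured 146.2 CPM in *Ctrl* 4 and 53.28 to 61.73 CPM in *Ctrl* 1 to 3, with a gap of 0.909 of the range. Both genes share sequence with *Cyp4a10*, which was also highest in *Ctrl* 4 (4383 CPM). So were *Cyp4a14* (8663 CPM), which shares no 75-base stretch with another gene, *Cyp4a12b* (77.6 CPM) and *Cyp4f15* (202 CPM). *Cyp4a12a*, *Cyp4f13*, *Cyp4f14* and *Cyp4v3* were highest in other livers. The reason was not tested.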

How the results depend on the processing

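0 of the 10 members was called under any of the 16 alternatives. Of 160 values of single members' fold changes 141 kept their direction and 19 changed it, all without a call. limma-voom gave log2 fold changes of 0.53 for *Cyp4a12b*, 0.25 for *Cyp4a31* and -0.27 for *Cyp4f14*, and removal of the length trend gave -0.0154 for *Cyp4f14* and -0.0656 for *Cyp4f15*. With 1 liver left out, the range was -0.0471 to 0.31 for *Cyp4a12a*, -0.47 to 0.36 for *Cyp4a12b*, -0.69 to 0.20 for *Cyp4a31*, -0.0719 to 0.0339 for *Cyp4f13*, -0.22 to 0.20 for *Cyp4f14* and -0.0430 to 0.0781 for *Cyp4f15*. The number of genes called over the whole table was 11, and 890 with DESeq2, 1814 with limma-voom, 46 with no filter and 0 to 544 with 1 liver left out (544 when *Ctrl* 3 and 64 when *Srsf10-kd* 3 was left out, and 0 when it was *Srsf10-kd* 1, 2 or 4 or *Ctrl* 2). On the pathway lists together 2 genes were called, 6 with limma-voom, 1 with the length trend removed and 0 to 3 with 1 liver left out. The causes were not tested. The correlation with *Cyp4a14* moved for *Cyp4a12a* to -0.0232, for *Cyp4f15* to 0.493 and for *Cyp4v3* to -0.0867 without the 2 farthest livers, and for *Cyp4v3* to -0.320 with group means removed.

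The livers share replicate numbers only. Same-numbered livers deviated together with correlations of -0.176, 0.213, 0.265 and 0.217 for numbers 1 to 4, and number 1 correlated best with number 4. With the replicate number as a block 59 genes were called over the whole table, 0 of the 10 members and 2 on the pathway lists. Member log2 fold changes under the block ran from -0.86 (*Cyp4a32*, edgeR adjusted p = 0.149) to 0.13 (*Cyp4a12a*, 0.412). For the ratios a paired exact test cannot decide, because its smallest possible p is 0.125 and no ratio could pass the threshold.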
